A study of Mus musculus with 6 samples.

Results

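Glutathione synthesis and glutathione transferases were followed through 10 genes, Gclc, Gclm, Gss, Gsr, Slc7a11, Gstm1, Gstm5, Gstp1, Gsta4 and Gsto1. Every probe that the array design assigns to one of these symbols was taken, which gave 17 of the 56605 probes on the array. The study asked how loss of autophagy acts on neonatal haematopoietic stem and progenitor cells. LSK cells, which lack lineage markers and carry Sca-1 and c-Kit and include the stem cells and early progenitors of bone marrow (BM), were sorted from C57BL/6 mice at P6–P8. There were 3 control samples (Atg5w/w;VaviCre+) and 3 samples of autophagy-deficient mice (Atg5f/f;VaviCre+, written Atg5f/f;Vav here), each on its own 1-colour Agilent array. Both groups carried the VaviCre transgene, whose Vav promoter drives Cre in all haematopoietic cells, so the deletion was not limited to LSK cells. Whether 1 mouse or a pool of mice stands behind each sample is not given in the sources used here. All n and SD therefore refer to arrays, and p-values measure the spread between these samples, which may be technical.

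Glutathione is a tripeptide of glutamate, cysteine and glycine and the main soluble thiol that protects cells from oxidants. The cell takes up cystine through the transporter encoded by Slc7a11, joins glutamate to cysteine by glutamate-cysteine ligase (catalytic subunit Gclc, modifier subunit Gclm), adds glycine by glutathione synthetase (Gss) and regenerates the oxidised form by glutathione reductase (Gsr). Glutathione transferases of the mu, pi, alpha and omega classes couple glutathione to electrophiles or use it to reduce them, and many genes of both groups are known targets of the transcription factor Nrf2.

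Values are the log2 signal of a probe minus the 75th percentile of its own array, so 0 is the level of a probe at that percentile. Levels of different probes are not comparable, because each probe binds with its own strength. Differences are given as the mean of the arrays labelled Atg5f/f;Vav minus the control mean. They were tested with limma over the 32074 probes that exceeded background clearly (Agilent's well-above-background flag) on 3 or more arrays, with Benjamini-Hochberg adjustment and a threshold of 0.05. Of all probes, 58.2%, 57.6% and 58.1% carried this flag in the control samples, compared with 54.8%, 53.9% and 51.6% in Atg5f/f;Vav. All 6 arrays lay on 1 slide with 1 scan, the controls in row 1 and the others in row 2, and position on the slide therefore cannot be told apart from genotype.

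The Atg5 probe of the array gives no check of the labels. This probe, which begins at base 2251 of the transcript, gave 1.10, 0.93 and 1.06 in control and 1.46, 1.51 and 1.74 on the arrays labelled Atg5f/f;Vav, a difference of 0.54 ± 0.12 (SE; adjusted p = 0.0209, limma). The sources used here do not say which part of the gene is removed, so a probe this far along the transcript may lie outside it. The study examined deletion of Atg5, a GFP-LC3 reporter of autophagy and p62 protein by other assays, which were not analysed here. Directions therefore follow the labels. Of the sort markers, Ly6a, which encodes Sca-1, was at 1.56, 1.31 and 1.53 in control and at 2.89, 2.91 and 3.30 in Atg5f/f;Vav (1.57 ± 0.15, adjusted p = 0.00623). Kit was detected on all 6 arrays, with means of 4.02 in control and 3.64 in Atg5f/f;Vav (difference −0.38, adjusted p = 0.0563) for its probe of highest signal, while its 2 further probes were lower (−0.67 and −0.62, adjusted p = 0.0207 and 0.0230).

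The tested genes of glutathione synthesis and recycling were higher in LSK cells labelled Atg5f/f;Vav, most of all Gclm at 3.04-fold, whereas the transferases divided. Gstm5, Gstp1 and Gsto1 were higher, Gstm1 was lower, and Gsta4 did not pass the test. Of the 17 probes 13 passed the filter on low signal, covering 9 of the 10 genes, and each of these 13 was well above background on all 6 arrays. Among them 10 were called higher and 2 lower, against 34.4% of all tested probes called in either direction, 17.3% higher and 17.1% lower. By gene, taking the probe with the highest mean signal, 7 were higher, 1 lower and 1 not called, against 18.7% of all tested genes called higher and 15.3% called lower. The median difference over the 9 genes was 0.80, against −0.06 over all tested probes and −0.03 over all tested genes. The groups did not overlap for any of the 13 probes, as for 55.4% of all tested probes. In bulk samples such as these, fewer cells of a type and less RNA per cell cannot be told apart.

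**Figure D1:**
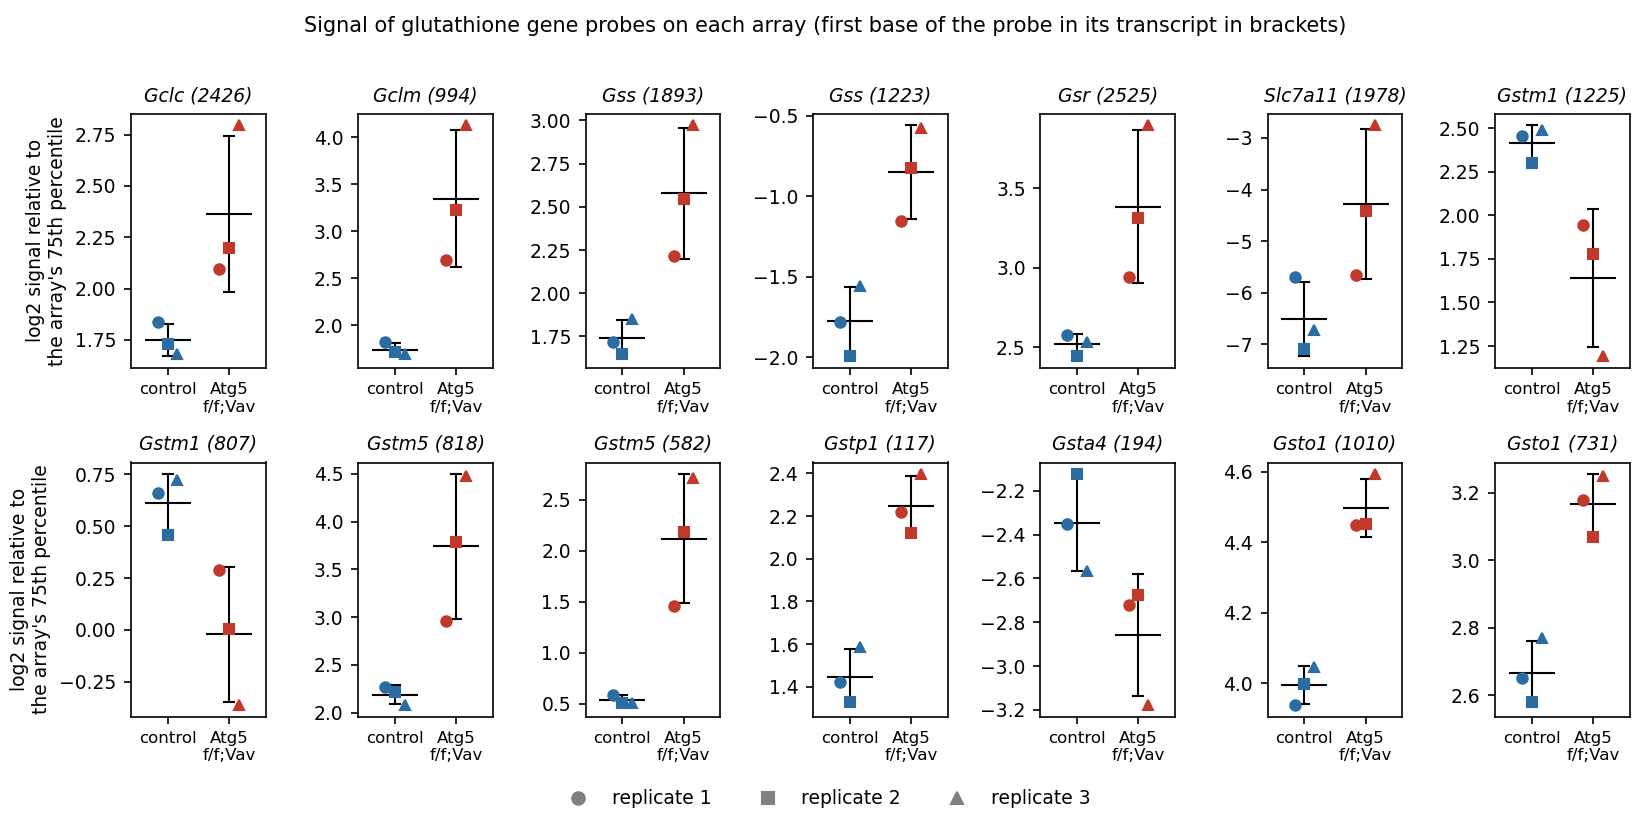
Log2 signal relative to the array's 75th percentile (y axis, a separate scale in each panel) for the 13 tested probes and the brightest Slc7a11 probe, with 1 point per array, shape giving the replicate, and the mean ± SD of 3 arrays per group in black. In each of the 13 tested probes the groups do not overlap, and replicate 3 of Atg5f/f;Vav lies farthest from the controls.

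Glutamate-cysteine ligase is the rate-limiting step of the pathway, and its modifier subunit Gclm lowers the enzyme's sensitivity to feedback by glutathione. Gclm was measured by 1 probe (chromosome 3, 121967737 to 121967796 of mm9, from base 994 of the transcript). It gave 1.82, 1.71 and 1.69 in control and 2.69, 3.22 and 4.12 in Atg5f/f;Vav. The control arrays lay within a narrow band, and the lowest Atg5f/f;Vav array stood well above it. The difference was 1.61 ± 0.33 on the log2 scale (SE, n = 3 per group, adjusted p = 0.0181). The probe is shown in full because this gene carries the largest difference among the 9 tested genes. The sequence identifies the stretch of transcript that was measured.

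Gclm probe, base 994: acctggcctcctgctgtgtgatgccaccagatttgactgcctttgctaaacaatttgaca

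The catalytic subunit Gclc moved less. Its probe (chromosome 9, 77641296 to 77641355, from base 2426) gave 1.83, 1.73 and 1.68 in control and 2.09, 2.20 and 2.80 in Atg5f/f;Vav, a difference of 0.61 ± 0.20 (1.53-fold, adjusted p = 0.0488). The groups did not overlap, but the call sat at the threshold. It was lost under quantile normalisation (adjusted p = 0.112), under a 75th percentile taken over probes detected on all arrays (0.113), and without any 1 control array (0.109, 0.134 and 0.114 without replicates 1, 2 and 3) or without replicate 2 of Atg5f/f;Vav (0.0669). The difference was 0.41 under that percentile, and 0.40 without replicate 3 of Atg5f/f;Vav, where it was still called (adjusted p = 0.0407).

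Within an array the ratio of Gclm to Gclc does not depend on the scaling between arrays. Its log2 value was −0.01, −0.02 and 0.01 in control and 0.60, 1.02 and 1.33 in Atg5f/f;Vav. The change in Gclm thus exceeded that in Gclc by 0.99 on the log2 scale, and no array of one group reached the other (exact permutation test, 2-sided p = 0.1, the smallest that 3 against 3 arrays allow). Only the change of such a ratio can be read, not its level.

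Gss, which completes the tripeptide, was higher by both of its probes. The probe that spans an intron (chromosome 2, minus strand, 155390637 to 155392549, from base 1223) gave −1.78, −1.99 and −1.56 in control and −1.15, −0.82 and −0.57 in Atg5f/f;Vav, a difference of 0.93 ± 0.19 (adjusted p = 0.0172). The probe farther along (155388927 to 155388986, from base 1893) gave 1.72, 1.65 and 1.85 in control and 2.22, 2.54 and 2.97 in Atg5f/f;Vav, a difference of 0.84 ± 0.20 (adjusted p = 0.0227). The probes lie in different stretches of the transcript and their differences lay within 1 SE of each other.

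Gsr, the NADPH-dependent enzyme that reduces glutathione disulphide, gave 2.58, 2.44 and 2.53 in control and 2.94, 3.32 and 3.90 in Atg5f/f;Vav (chromosome 8, 34808488 to 34808547, from base 2525). All Atg5f/f;Vav arrays were above all controls, and their spread was the wider one. The difference was 0.87 ± 0.23 (adjusted p = 0.0313). The call was lost under quantile normalisation (adjusted p = 0.0722) and with the percentile over probes detected on all arrays (0.0514), and also without replicate 3 of the controls (0.0710) or replicate 2 of Atg5f/f;Vav (0.0613).

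Slc7a11, the light chain of the cystine-glutamate exchanger, was near the limit of detection. None of its 4 probes was well above background on a control array or on more than 2 arrays in all, so none met the minimum of 3 arrays for the test. The brightest (chromosome 3, 50176047 to 50176106, from base 1978) was at −5.70, −7.10 and −6.73 in control and at −5.66, −4.41 and −2.75 in Atg5f/f;Vav, and was well above background on 2 of the 3 Atg5f/f;Vav arrays. Against the lowest signal that counted as detected on each control array, the mean of all 3 Atg5f/f;Vav arrays as read was 1.49-fold higher. It is no firm lower bound, because replicate 1 of Atg5f/f;Vav (−5.66) was under the limit of its own array (−4.82). The value rests on replicate 3, since the mean of the other Atg5f/f;Vav arrays (−5.03) was under the mean control limit (−4.85), an alternative chosen after seeing the data. Without the filter the fit gave an adjusted p of 0.104. A second probe, from base 682, was well above background on 1 array, replicate 3 of Atg5f/f;Vav, at −3.78. The probes from bases 8325 and 1858 were not well above background on any array. Those from bases 682 and 1858 carry accessions that matched no gene of the RefSeq table, so their assignment to Slc7a11 rests on the array design.

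**Figure D2:**
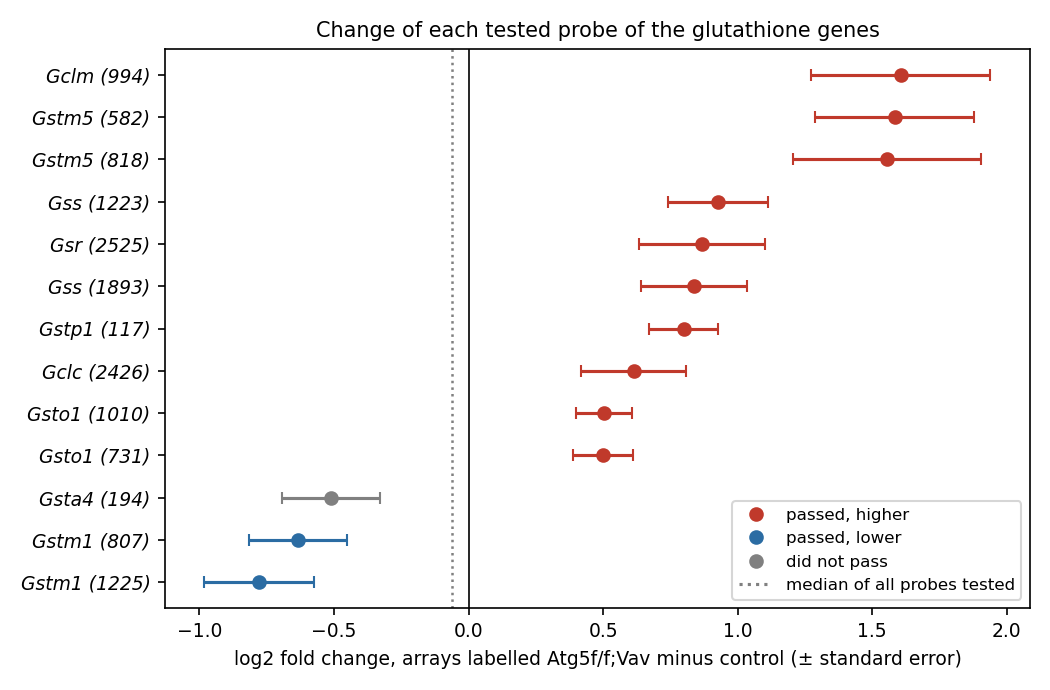
Log2 difference (x axis, Atg5f/f;Vav minus control, ± SE of the limma fit) for each of the 13 tested probes, named by gene and first transcript base, with the median of all tested probes dotted. The 10 probes called higher run from 0.50 for Gsto1 to 1.61 for Gclm, and the 2 Gstm1 probes are called lower.

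Among the transferases, Gstm5 and Gstm1 belong to the same mu class and their genes lie in the same cluster on chromosome 3, yet they changed in opposite directions. The probe of Gstm5 from base 582 (107701101 to 107701160) gave 0.59, 0.51 and 0.51 in control and 1.45, 2.19 and 2.71 in Atg5f/f;Vav, a difference of 1.58 ± 0.29 (3.0-fold, adjusted p = 0.0165). The probe from base 818 (107701511 to 107701570) gave 2.27, 2.21 and 2.08 against 2.96, 3.78 and 4.48, a difference of 1.55 ± 0.35 (adjusted p = 0.0206). With both probes the groups stood apart, and the Atg5f/f;Vav arrays were more spread than the controls.

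Gstm1, an abundant mu-class enzyme of liver and other tissues, gave 2.46, 2.30 and 2.49 in control and 1.95, 1.78 and 1.19 in Atg5f/f;Vav with the probe from base 1225. The signal fell by 0.78 ± 0.20 on the log2 scale (adjusted p = 0.0290). The probe from base 807 (chromosome 3, minus strand, 107815595 to 107815654) gave 0.66, 0.46 and 0.72 against 0.29, 0.01 and −0.36, and fell by 0.63 ± 0.18 (adjusted p = 0.0375). Neither probe overlapped between the groups. Without replicate 3 of the controls neither kept its call (adjusted p = 0.0734 for the probe from base 1225), and the probe from base 807 also lost it without replicate 2 or 3 of Atg5f/f;Vav. The array design gives the probe from base 1225 the Gstm1 transcript but places it on chromosome 5 (117082490 to 117082549), so its position in the genome is uncertain. Its last 30 bases, given here to identify the probe, hold the hexamer AATAAA in capitals, the usual polyadenylation signal. The Gstm5 probe from base 582 is set beside it, and it has 2 reading frames without a stop codon.

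Gstm5 probe, base 582: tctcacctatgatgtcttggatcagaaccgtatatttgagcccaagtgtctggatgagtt

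Gstm1 probe, base 1225, last 30 bases: gtctcatctacAATAAAgtctgaaacacac

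Mu-class genes are close copies of each other. How strongly a Gstm1 or Gstm5 probe binds the transcript of a neighbour was not tested.

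The ratio of Gstm5 to Gstm1 within an array was −0.19, −0.09 and −0.41 in control and 1.02, 2.01 and 3.28 in Atg5f/f;Vav on the log2 scale, a difference of 2.33. The ratio of Gclm to Gstm1 was −0.64, −0.59 and −0.80 against 0.75, 1.44 and 2.93, a difference of 2.38. These pairs were chosen with their opposite changes known, and each gene alone already kept the groups apart, so the ratios are a description and no test is given.

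**Figure D3:**
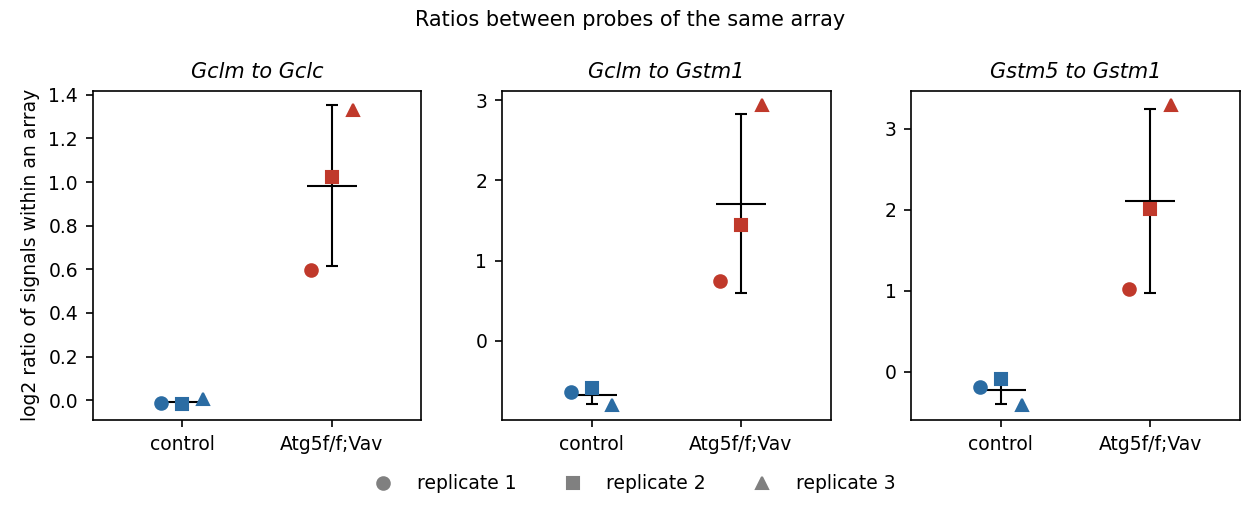
Log2 ratio between the signals of 2 genes on the same array (y axis), with 1 point per array, shape giving the replicate, and the mean ± SD of 3 arrays per group. The Gclm to Gclc ratio runs from −0.02 to 0.01 in control and from 0.60 to 1.33 in Atg5f/f;Vav, and the ratios to Gstm1 join genes that had already separated the groups in opposite directions.

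The other genes of the mu cluster sided with Gstm1 or were not called. Gstm3 was at 3.43, 3.30 and 3.35 in control and at 2.86, 2.64 and 2.06 in Atg5f/f;Vav, a fall by 0.84 ± 0.21 (adjusted p = 0.0252). Gstm4 was at −2.14, −2.19 and −2.28 against −2.44, −2.85 and −3.14, a fall by 0.61 ± 0.18 (adjusted p = 0.0424), a call that quantile normalisation removed (−0.37, adjusted p = 0.143). In both genes the groups did not overlap. Gstm7 (difference −1.23, adjusted p = 0.0875), Gstm6 (−0.50 and 0.47 with its 2 probes, adjusted p = 0.0911 and 0.108) and Gstm2 (−0.12, adjusted p = 0.812) did not pass. This Gstm7 probe was well above background on 3 control and 2 Atg5f/f;Vav arrays, and a further Gstm7 probe on none. Gstm2 was so on 2 and 2, and the Gstm6 probe at 0.47 on 1 and 2. The sizes of these differences are therefore uncertain. The sign for Gstm2 turned under quantile normalisation (0.21). Without replicate 3 of Atg5f/f;Vav the difference was −0.63 for Gstm7, then called (adjusted p = 0.0471), and −0.28 for the Gstm6 probe that was at −0.50. Both were called without replicate 1 of Atg5f/f;Vav (−1.65 and −0.67, adjusted p = 0.0345 and 0.0385) and with normexp background correction (−0.36 and −0.33, adjusted p = 0.0319 and 0.0399), and Gstm6 also with the percentile over probes detected on all arrays (−0.71, adjusted p = 0.0425). Gstm5 was the only mu-class gene of the 7 on the array that was called higher.

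**Figure D4:**
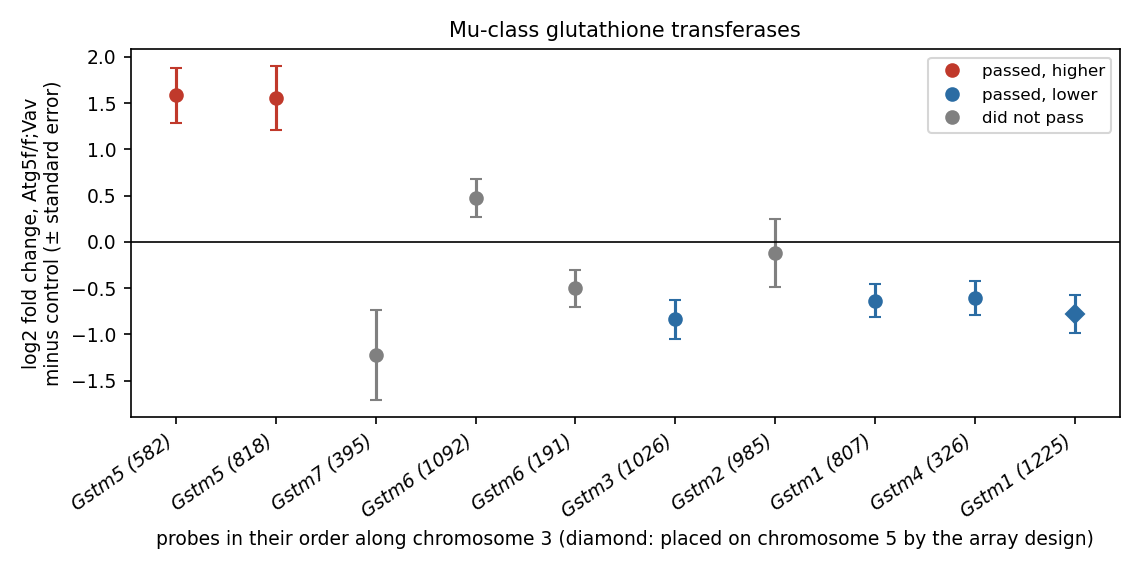
Log2 difference (y axis, Atg5f/f;Vav minus control, ± SE) of each tested mu-class probe, in the order of the probes along chromosome 3, with the Gstm1 probe that the design places elsewhere as a diamond. Both Gstm5 probes are called higher, 4 probes of Gstm3, Gstm1 and Gstm4 are called lower, and the 4 grey probes did not pass.

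Gstp1, the pi-class transferase, gave 1.42, 1.33 and 1.59 in control and 2.22, 2.12 and 2.40 in Atg5f/f;Vav (chromosome 19, minus strand, 4037306 to 4037365, from base 117). The difference was 0.80 ± 0.13 (adjusted p = 0.0147), with a spread of 0.13 (SD) in control and 0.14 in Atg5f/f;Vav and no overlap. The accessions that the design gives for this probe match both Gstp1 and its neighbouring copy Gstp2, so its signal cannot be assigned to one of them. The probe named for Gstp2 gave 4.68, 4.68 and 5.02 against 5.37, 5.42 and 5.60 (0.67 ± 0.14, adjusted p = 0.0183), but 0.29 and no call under quantile normalisation (adjusted p = 0.0848). The sequence is given because it is the only one of the 17 whose accessions name 2 genes.

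Gstp1 probe, base 117: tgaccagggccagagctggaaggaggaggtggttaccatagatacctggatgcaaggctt

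Gsto1, an omega-class transferase that reduces dehydroascorbate and other substrates with glutathione, showed the smallest called differences. The probe from base 1010 (chromosome 19, 47939128 to 47939187) gave 3.94, 4.0 and 4.05 in control and 4.45, 4.45 and 4.59 in Atg5f/f;Vav, a difference of 0.50 ± 0.10 (adjusted p = 0.0181). The probe from base 731 (47938849 to 47938908) gave 2.65, 2.58 and 2.77 against 3.18, 3.07 and 3.25, a difference of 0.50 ± 0.11 (adjusted p = 0.0204). The groups did not overlap with either probe. Under quantile normalisation the differences were 0.16 and 0.24 and neither was called (adjusted p = 0.198 and 0.0924).

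Gsta4, the alpha-class transferase known for conjugating the lipid peroxidation product 4-hydroxynonenal, gave −2.35, −2.12 and −2.57 in control and −2.72, −2.68 and −3.18 in Atg5f/f;Vav (chromosome 9, 78046172 to 78047344, a span that crosses an intron, from base 194). The difference was −0.51 ± 0.18 (adjusted p = 0.0672), so it did not pass although the groups did not overlap. It was −0.26 under quantile normalisation and −0.29 with normexp background correction (adjusted p = 0.244 and 0.0838), and −0.72 with the percentile over probes detected on all arrays, where it was called (0.0351). Its probe lies across a splice junction and is shown as the one tested gene without a call.

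Gsta4 probe, base 194: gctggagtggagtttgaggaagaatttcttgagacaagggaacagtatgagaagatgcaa

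Promoter sequences from RefSeq (GRCm38.p6, 250 bases before to 50 bases after the start of a gene) matched 7 of the 10 genes, with 8 promoters. They were searched on both strands for TGACNNNGC, the letters of the antioxidant response element that Nrf2 is known to bind. The letters occurred in 4071 of 32851 promoters (12.4%) and in 2 of the 8, those of Gclm and Gstm5. Among other glutathione genes they also occurred in a promoter of Ggct, which was called higher, of Mgst1, which was called lower, and of Gstm7, Gsta3, Slc6a9, Abcc4, Slc25a40 and Hagh, which had no call, so matches stood beside both directions. In Gclm they lie on the opposite strand at position −134 from the start, and in Gstm5 on the strand of the gene at position −42. A match describes letters only and names no bound factor, and a promoter without them was searched in this window alone. The 250 bases before each start are shown, with the match in capitals.

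Gclm promoter, chr3:122245307-122245556, plus strand: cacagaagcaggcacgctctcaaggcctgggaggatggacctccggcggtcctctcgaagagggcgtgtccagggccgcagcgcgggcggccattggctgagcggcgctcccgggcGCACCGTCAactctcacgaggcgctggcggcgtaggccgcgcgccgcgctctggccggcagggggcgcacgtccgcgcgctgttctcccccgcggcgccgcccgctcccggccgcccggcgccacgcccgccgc

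Gstm5 promoter, chr3:107895604-107895853, plus strand: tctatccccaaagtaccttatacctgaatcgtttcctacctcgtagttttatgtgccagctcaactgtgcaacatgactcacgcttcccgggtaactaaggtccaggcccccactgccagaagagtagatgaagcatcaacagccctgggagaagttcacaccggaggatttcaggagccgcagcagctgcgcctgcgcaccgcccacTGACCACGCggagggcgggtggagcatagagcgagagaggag

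The wider glutathione pathway had calls in both directions. Of 68 other listed genes 65 were on the array and 52 were tested, of which 13 were called higher, 8 lower and 31 not called. These are 40.4% called, against 34.1% of all tested genes, and their median difference was 0.13. The 6 lists that make up these genes hold 5 to 13 tested genes each, and their counts stand beside 18.7% of all tested genes called higher and 15.3% called lower. Under quantile normalisation their median was −0.0003, and with the percentile over probes detected on all arrays it was −0.07, with 10 higher and 15 lower, where the median of all tested probes itself moved to −0.27.

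Of genes that supply cysteine and glycine, 5 of 10 tested were called higher and none lower, with a median of 0.39. Shmt2, the mitochondrial enzyme that makes glycine from serine, was at 2.30, 2.29 and 2.63 in control and at 3.29, 3.36 and 3.85 in Atg5f/f;Vav (1.09, adjusted p = 0.0153). Slc3a2, the heavy chain that partners the Slc7a11 product, was at 3.16, 3.03 and 3.27 against 3.66, 3.78 and 4.36 (0.78, adjusted p = 0.0267, but 0.48 and 0.0636 under quantile normalisation). Ahcy, which releases homocysteine from S-adenosylhomocysteine, was at −1.43, −1.62 and −1.51 against −0.84, −0.80 and −0.63 (0.77, adjusted p = 0.0142). In each of these genes all Atg5f/f;Vav arrays were above all controls.

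In glutathione breakdown 3 genes were higher and 2 lower of 8 tested, with a median of 0.70. The cytosolic peptidases Cndp2 (1.23, adjusted p = 0.0141) and Lap3 (1.21, adjusted p = 0.0171), which handle cysteinylglycine, and Ggct, the gamma-glutamylcyclotransferase (0.84, adjusted p = 0.0165), were higher. The 5-oxoprolinase gene Oplah (−1.09, adjusted p = 0.0282, well above background on 3 control arrays and 1 Atg5f/f;Vav array) and Ggt5, a gamma-glutamyl transferase family member (−0.90, adjusted p = 0.0209), were lower, and neither was called under quantile normalisation (adjusted p = 0.0771 and 0.0717). Oplah met the filter through the control arrays, so the size of its difference is uncertain. With normexp background correction that difference was −0.49 (adjusted p = 0.00855). Ggt1, Ggt6, Ggt7 and the dipeptidase genes Dpep1, Dpep2 and Dpep3 were not well above background on any array.

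The glyoxalase list had 2 genes higher of 5 tested and none lower (median 0.32), a share of calls close to that of all genes. Glo1, which clears methylglyoxal with glutathione as cofactor, was at 2.26, 2.64 and 2.51 in control and at 3.24, 3.79 and 3.96 in Atg5f/f;Vav (1.19, adjusted p = 0.0154). Esd, S-formylglutathione hydrolase, differed by 0.69 (adjusted p = 0.0235), but by 0.34 without a call under quantile normalisation (0.0950). The groups did not overlap for Glo1 or for Esd.

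Of 9 transport genes 2 were higher and 1 lower (median 0.12), again close to the share of all genes. Slc25a10, a mitochondrial dicarboxylate carrier, was at −5.24, −5.20 and −4.37 in control and at −3.10, −3.28 and −3.23 in Atg5f/f;Vav (1.73, adjusted p = 0.0127). Only 1 of its control arrays was well above background, and the gene met the filter through the Atg5f/f;Vav arrays. The size of its difference is therefore uncertain. With normexp background correction the difference was 0.66 (adjusted p = 0.00323). Slc25a39, the mitochondrial glutathione importer, differed by 0.43 (adjusted p = 0.0270), but by 0.12 without a call under quantile normalisation (0.311). Abcc3, an exporter of conjugates, was at −2.08, −1.72 and −2.20 against −2.93, −3.11 and −3.82 (−1.29, adjusted p = 0.0168).

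The calls among the remaining transferases were 4 of 13 and 2 of 7, beside 34.1% of all tested genes. Of 13 other cytosolic transferases, Gstp2 was called higher and Gstm3, Gstm4 and the theta-class Gstt3 (−0.74, adjusted p = 0.0324) lower, with a median of −0.50. Of 7 mitochondrial and membrane-bound enzymes none was higher and 2 were lower, the mitochondrial kappa-class Gstk1 (−0.78, adjusted p = 0.0411) and the microsomal Mgst1 (−0.80, adjusted p = 0.0395), with a median of −0.33. Mgst1 was at 1.70, 1.58 and 1.53 in control and at 1.19, 0.96 and 0.27 in Atg5f/f;Vav, without overlap. Without replicate 3 of the controls Gstm3, Gstm4, Gstt3, Gstk1 and Mgst1 were not called (adjusted p = 0.0591, 0.0782, 0.0769, 0.0999 and 0.0778). Without replicate 3 of Atg5f/f;Vav the differences were −0.51 for Gstk1 and −0.53 for Mgst1, both still called (adjusted p = 0.0269 and 0.0277). Gstm4 was then not called (0.0667). Leaving out replicate 2 of Atg5f/f;Vav removed the calls of Gstk1 and Gstm4 (adjusted p = 0.0588 and 0.0959).

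**Figure D5:**
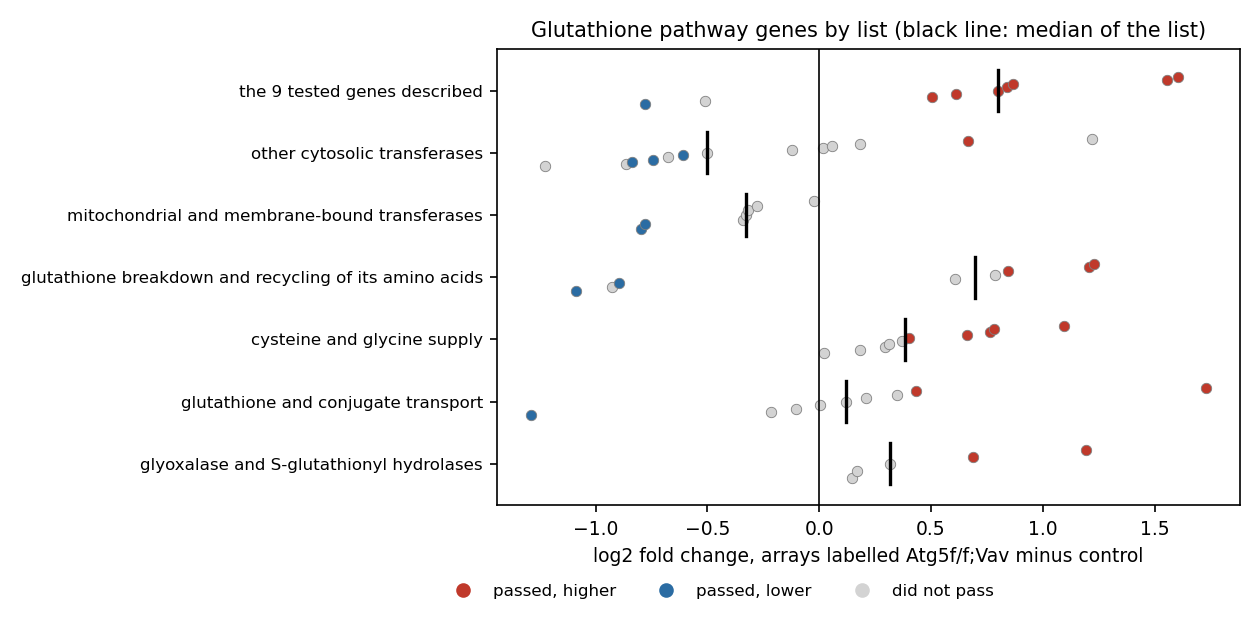
Log2 difference (x axis, Atg5f/f;Vav minus control) of each tested gene by list, with the list's median as a black line and colours for the outcome of the limma test. The 9 tested genes of synthesis and transfer have a median of 0.80 and cysteine and glycine supply 0.39, while other cytosolic transferases have −0.50.

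Across the 20773 genes whose representing probe was measured on all 6 arrays, the profiles closest to Gclm after centring each gene on its own mean were those of Nckap1, 1700006J14Rik and Tubb2a, with root mean square differences of 0.0611, 0.0762 and 0.0805 log2 units. Those closest to Gstm1 were Gstt3, Tas1r1 and Rfx3, at 0.0337, 0.0380 and 0.0420. With 6 arrays in 2 groups, such likeness mostly restates the difference between the groups.

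The sorted cells also differed in markers, and the part of this in the glutathione results was not tested. The counts of these lists stand beside the same 18.7% of tested genes called higher and 15.3% called lower. Of 12 stem cell markers 6 were lower and none higher. Their median log2 level was 1.89, 1.74 and 1.71 in control and 0.87, 0.83 and −0.51 in Atg5f/f;Vav, where replicate 3 was again the farthest from the controls. Of 14 erythroid markers 6 were higher and 5 lower. Those higher, named after their values were seen, were the erythroid regulators Gata1 (8.01-fold) and Klf1 (7.73-fold), the carbonic anhydrase Car1 (13.9-fold), the erythropoietin receptor Epor (4.23-fold), the transferrin receptor Tfrc (4.42-fold) and Rhag (5.31-fold). Gata1 was at 0.87, 0.38 and 0.95 in control and at 2.90, 3.73 and 4.56 in Atg5f/f;Vav. Replicate 3 was the farthest from the controls, as it was for all 13 tested glutathione probes, those that fell included. Those lower were the globin genes Hba-a1, Hbb-b1 and Hbb-bt, Alas2 and Slc4a1. The median log2 level of the list was 1.11, 0.92 and 0.72 in control and 1.22, 1.72 and 2.38 in Atg5f/f;Vav, and its summed linear signal, led by the globin gene Hba-a1, was 751, 684 and 372 in control and 175, 224 and 246 in Atg5f/f;Vav, in units of each array's 75th percentile. Of 12 neutrophil and granulocyte progenitor markers 4 were higher and 6 lower, with Mpo the brightest and sums of 237, 182 and 301 against 305, 245 and 298. Of 9 tested stromal and endothelial markers 4 were lower and none higher, among them Col1a1, which was not well above background on any Atg5f/f;Vav array and passed the filter through the controls alone, and Kdr, which was on 2. Their sum, led by Sparc, was 4.14, 32.9 and 26.0 in control and 3.51, 2.84 and 3.15 in Atg5f/f;Vav, and Col3a1, Pdgfra and Cdh5 were not well above background on any array. Control replicate 1 had a stromal sum near that of the Atg5f/f;Vav arrays. Its values for the 13 tested glutathione probes lay inside the range of the other controls or at most 0.11 log2 units outside it. This is 1 array, and the part of stromal cells in the glutathione differences was not tested.

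The remaining lists are given by their counts. B cell, macrophage and dendritic, and T and NK cell markers had 1 of 8, 1 of 7 and 1 of 7 called higher and none lower, shares below the 18.7% of all tested genes. The genes called, named after their values were seen, were Cd79a (well above background on 1 control array), Cx3cr1 (3.05-fold) and Gzmb, which was not well above background on any control array and passed the filter through the Atg5f/f;Vav arrays alone. The brightest genes of these lists, Cd79b, Itgam and Lck, were not called. Mrc1 of the macrophage list and Cd3g and Ncr1 of the T and NK cell list were not well above background on any array. Megakaryocyte markers had 2 higher and 3 lower of 8 (of the latter Ppbp was not well above background on any Atg5f/f;Vav array). Gp9 was the brightest, and the sums were 9.67, 8.64 and 8.31 in control against 7.75, 7.73 and 7.52 in Atg5f/f;Vav. Mast cell and eosinophil markers had 1 lower of 9, Tpsb2 (−1.06, adjusted p = 0.0210, limma). Gata2, the brightest of that list, was not called. Of genes behind the antibodies that stained lineage cells at this age, Ly6g (recognised by Gr-1) was higher (0.71). Ptprc was lower (−0.34), at the threshold (adjusted p = 0.04997, limma). B220 is a form of the Ptprc product, and whether the probe singles out that form was not tested. Cd4 and Il7r were not called, and Cd8a was not well above background on any array. Of 7 markers of LSK cells, with Cd34 the brightest, Ly6a was higher and Meis1 lower (−0.78), while Cd34, Flt3, Tek and the brightest Kit probe did not pass.

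The calls of the glutathione genes rest on few arrays. With control replicate 1 or control replicate 2 left out, none of the 13 probes passed in limma, although 12 had an unadjusted p under 0.05 in each case and calls over all probes fell to 330 and 251. Without control replicate 3 the calls of Gclc, Gsr, both Gstm1 probes and the Gstm5 probe from base 818 (adjusted p = 0.0523) were lost, and without a filter on dim probes 4 calls remained, those of Gclm, Gstp1, the Gss probe from base 1223 and the Gstm5 probe from base 582. The differences themselves kept their sign in every array left out, from 1.22 to 1.93 for Gclm and from −0.93 to −0.55 for the Gstm1 probe from base 1225.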

How the data were processed

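Gene expression of LSK cells from 3 control and 3 Atg5f/f;Vav samples was measured on 1-colour Agilent arrays with 60-mer probes whose coordinates are those of mm9. The authors deposited scanner files with 1 intensity per spot, background-corrected by Agilent Feature Extraction 12.0.3.1 (per the labels) and not scaled between arrays, and a table of normalised signal, a linear scale that equals intensity divided by a constant of the array (varying by at most 0.000267%).

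From the deposited intensity, log2 was taken minus the array's 75th percentile over its 59305 non-control spots. Spots that the scanner software marked as outliers (64 to 81 on an array, none of the genes described) were dropped, spots of a probe were averaged, and no spot was saturated. This percentile lay at an intensity of 656.8, 651.7 and 746.2 in control and of 881.4, 698.4 and 620.3 in Atg5f/f;Vav. Arrays give no read depth, so precision depends on how many there are. Probes were tested with limma 3.58.1 (lmFit and eBayes, 2-sided) in R 4.3.3. Genes were represented by their probe with the highest mean signal. The within-array ratio of Gclm to Gclc was compared by exact permutation. The steps were tested on simulated data.

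The genes, lists and tests were chosen with earlier results of these data known. Named were all 10 genes, the Gstm family, up to 3 called genes each way per list, the 3 closest profiles of Gclm and Gstm1, and for marker lists the brightest gene and the genes of the gate. The promoter search, the called genes of marker lists (the erythroid ones included) and the genes listed as not detected were chosen after values were seen. Alternatives were quantile normalisation, normexp background correction (offset 50), the deposited signal, a percentile taken from probes detected on every array, no filter or a filter on all 6 arrays, outlier spots kept, an intensity trend, the methods' t-test, a replicate block, each array left out and, for ratios, the mean of all probes. With 1 slide and 1 scan, neither could enter a fit as a block. Some genes of the gate are not reported here. Gsta1, Gstp3 and Hagl were not analysed here, and neither were flow cytometry, quantitative PCR and transplantation.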

Additional observations from a re-analysis of the deposited data

How the results depend on the processing

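None of the 13 tested probes of the 10 genes changed sign under any alternative. Of the other glutathione genes named, Gstm2 (−0.12) turned with quantile normalisation (0.21), without control replicate 3 (0.17) and without Atg5f/f;Vav replicate 3 (0.06). Calls were 11024 over all probes, 12 of the 13 tested glutathione probes and 21 of the 52 other glutathione genes. Without a filter on dim probes they were 4538, 4 and 9. By the methods' t-test after Benjamini-Hochberg adjustment all 3 counts were 0, with 13541, 11 and 24 at an unadjusted p under 0.05. Without control replicate 1 they were 330, 0 and 0, without control replicate 2 they were 251, 0 and 0, and without control replicate 3 the glutathione probes numbered 7. Leaving out each of the 6 arrays gave 251 to 10304, 0 to 12 and 0 to 24. The cause was not tested.

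Scaling moved the split of directions. With the percentile from probes detected on every array the median of all probes was −0.27, against −0.06, with 3369 probes higher and 10089 lower (5540 and 5484 otherwise) and 8 glutathione probes higher and 3 lower. With quantile normalisation 6 were higher and 2 lower. With normexp background correction Abcc3, Ggt5 and Gstm4 were at −0.82, −0.55 and −0.34 and stayed called.

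Deviations of same-numbered arrays from their group means had correlations of −0.07, 0.19 and 0.11. With 3 arrays per group these cannot show whether the replicate numbers pair the samples. In both groups the replicate number is also the column on the slide. With the replicate number as a block, calls were 10173, 11 and 20, Gclc (adjusted p = 0.0798) and the Gstm1 probe from base 807 (0.0607) were not called and Gsta4 was (0.0323), and the ratio of Gclm to Gclc had an exact p of 0.25, the smallest possible. With 1 array left out, the ratios differed by 0.82 to 1.18 for Gclm to Gclc, 1.77 to 2.86 for Gclm to Gstm1 and 1.74 to 2.87 for Gstm5 to Gstm1.

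Precision is limited by 3 arrays per group, and low signal left Slc7a11 outside the test.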
